A study of Mus musculus with 6 samples.

Results

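Interferon-stimulated genes are switched on when interferon reaches a cell, and the list of 35 genes described here holds such genes together with 4 that serve peptide presentation on MHC class I molecules. The members were taken by gene symbol from a fixed list, which was chosen with earlier results of these data known. The brightest transcript cluster (the probes an array pools for about 1 gene) would have stood for a gene with several. Of the 35 genes, 33 had a cluster under their symbol, each with 1 cluster, out of 19505 genes named in the table. Ifi44 and Gbp5 had none under their symbols in the annotation used, so their signals were not analysed here. The 33 fall into 21 antiviral effectors, 8 sensors, signalling factors and feedback genes, and 4 genes of antigen processing and presentation.

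Tubular epithelial cells were isolated from mouse kidneys with collagenase once the organs had been through ischemia for 30 min and reperfusion for 24 h, an injury that both arms shared. In the IR PT2385 arm (3 arrays) mice received PT2385, an inhibitor of HIF-2α that blocks its binding to ARNT. The dose was 10 mg/kg, first given 16 h ahead of the operation and again at 1, 8 and 20 h of recovery. The IR vehicle arm (3 arrays) received vehicle, and the protocol once spells the injected compound PT2384. The samples are titled IRPT and IR, and IRPT was read as the PT2385 arm. The labels used here state no strain, age or sex, and do not say whether animals were pooled. They also do not tie each sample to an animal of its own, so a p-value reflects only how these samples vary, which may be technical. Uninjured kidneys were not analysed here.

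Interferons bind receptors on the cell surface, whose kinases, Jak1 among them, phosphorylate transcription factors. A complex that holds Stat2 and Irf9 binds the interferon-stimulated response element (ISRE) in the promoters of its targets, while interferon-gamma acts mainly through the gamma-activated site (GAS). The targets include proteins that bind, cut or trap foreign nucleic acids, sensors such as RIG-I that start the response, and the immunoproteasome and peptide transporter that feed MHC class I, and injured kidney tubules are known to express interferon-stimulated genes.

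The letters these factors are known to bind are shown here for the members on which the results turn, to let a reader set promoter and response side by side. The stretches come from RefSeq promoter windows (GRCm38.p6) and are 60 bases each, with capitals marking the ISRE-type pattern on either strand, which is GAAA, any 2 bases and GAAA again, or TTCNNNGAA (GAS-type) for Isg20. The GAS-type pattern reads the same on both strands. Overlapping matches run together in Oas1a and Isg15, and Isg15 is shown as a member with 3 matches whose signal did not pass the test.
Isg20, chr7:78913325-78913384, plus strand: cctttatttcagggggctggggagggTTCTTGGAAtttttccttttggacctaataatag
Ifit3, chr19:34583365-34583424, plus strand: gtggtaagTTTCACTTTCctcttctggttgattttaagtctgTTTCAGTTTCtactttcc
Ifit1, chr19:34640769-34640828, plus strand: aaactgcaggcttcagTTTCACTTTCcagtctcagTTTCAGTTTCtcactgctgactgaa
Oas1a, chr5:120907526-120907585, minus strand: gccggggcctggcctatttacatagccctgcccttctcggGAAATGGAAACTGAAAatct
Isg15, chr4:156200856-156200915, minus strand: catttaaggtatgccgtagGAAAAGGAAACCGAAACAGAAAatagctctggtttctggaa

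Over the 250 bases before a start site, the ISRE-type letters occurred in 11 of 27 members with a window (40.7%), against 936 of 27025 genes (3.46%). The GAS-type letters occurred in 7 of the 27 members (25.9%), against 8.13% of all genes. The 27 include Ifi44 and Gbp5, which have a window but no measured signal, and Gbp5 is counted for both patterns. Isg20 had 3 windows, with 0 ISRE-type matches and 1 GAS-type match, and Ddx58 had 1 window with neither pattern. Among measured members, the 10 with an ISRE-type match had a median difference (PT2385 minus vehicle, log2) of 0.16, from -0.02 to 0.76, and the 15 without one had 0.01, from -0.38 to 2.04. The 6 measured members with a GAS-type match, Isg20 among them, had a median of 0.09, from -0.05 to 2.04. The 19 without one had 0.01, from -0.38 to 0.76. A match is a description of the letters only.

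The arrays carried signals of tubule cells and of other cells. Proximal tubule markers were bright in all arrays, with Lrp2, the gene of the uptake receptor megalin, at 11.12 to 11.94 in PT2385 arrays, against 11.16 to 11.68 in vehicle arrays (log2 signal). Group means at or below 4.47, the top of the 6 array medians over negative control rows, were found for 3 of 3 B cell markers, 5 of 8 T and NK cell markers and 4 of 6 dendritic cell markers, and for 0 of 11 macrophage markers and 0 of 7 endothelial markers. Y-linked Eif2s3y had 3.04 to 3.34 in PT2385 arrays, against 9.09 to 9.28 in vehicle arrays, and Uty and Kdm5d separated the arms in the same way. The Y chromosome is carried by males, so the arms appear to differ in sex as well as in treatment, though the labels state no sex. Sex and treatment cannot be told apart for any value below. All 33 measured members lie on autosomes, where the same limit holds.

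For most of the interferon and antigen presentation genes the arms overlapped. In limma's test over all 22206 clusters, 2 of the 33 members were higher in the PT2385 arm, Isg20 and Ifit3, and 0 were lower, while 0.829% of all clusters passed in either direction, 0.333% higher and 0.495% lower. At an unadjusted p under 0.05 there were 5 higher members, beside 7.94% of all clusters, and 1 lower one, beside 6.54%, together 18.2% of members against 14.5% of clusters. The arms did not overlap for 7 members (21.2%), beside 20.7% of all clusters, so the share that separated is near the background. Of these 7, 6 were higher in the PT2385 arm, beside 11.6% of clusters, and 1 was lower, beside 9.13%. A positive difference was found for 22 members (66.7%), beside 53.5% of clusters, and the median difference was 0.07 over the members and 0.02 over all clusters. The members' median ran from 0.02 (without vehicle replicate 3) to 0.16 (without vehicle replicate 1) when single arrays were left out, and was 0.02 with arrays centred on their medians. The difference was under 0.5 in size for 29 members, and for 30 the 95% interval lay within 1 log2 unit of 0.

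**Figure D1:**
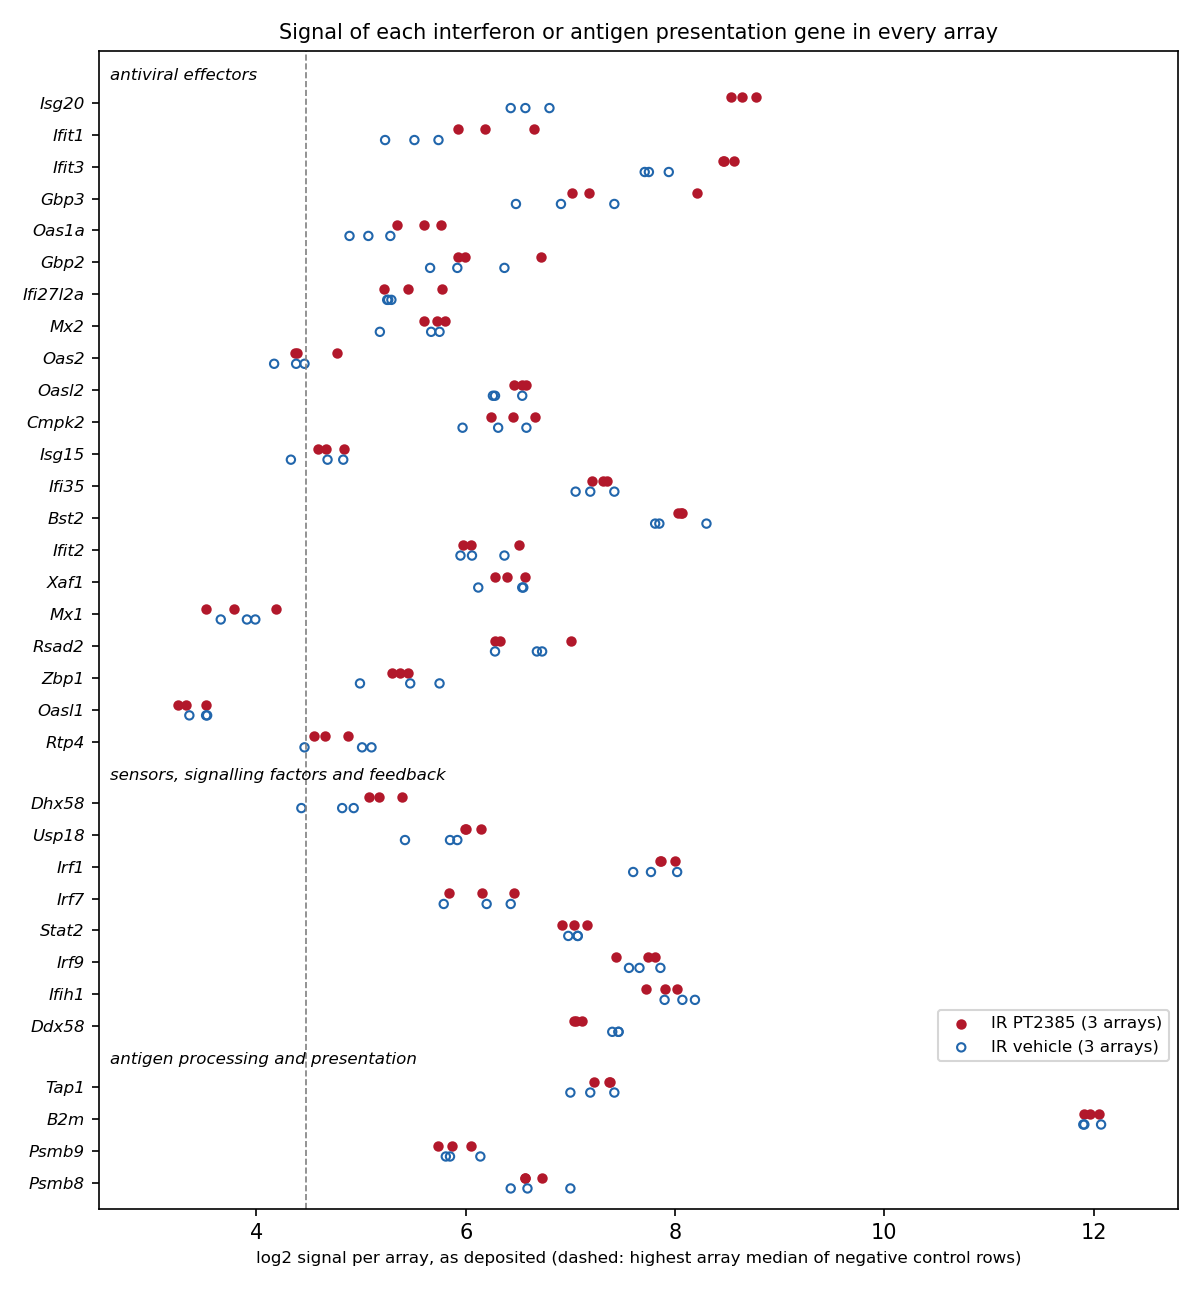
Log2 signal (x axis) of each of the 33 measured members (rows, grouped by role) in every array, with filled red points for the 3 IR PT2385 arrays above open blue points for the 3 IR vehicle arrays. Isg20 stands alone in the distance between its arms (8.53 to 8.77 in PT2385 arrays, 6.43 to 6.80 in vehicle arrays), and the means of Mx1 and Oasl1 lie left of the dashed line at 4.47. Signals of different genes come from different probes and cannot be ranked against each other.

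Among the antiviral effectors, Isg20, an exonuclease gene whose product degrades RNA and whose human counterpart was also cloned as an oestrogen-induced transcript, had the largest difference. Isg20 had log2 signals of 8.53, 8.64 and 8.77 in the PT2385 arrays, against 6.43, 6.80 and 6.57 in the vehicle arrays. Every PT2385 array lay above every vehicle array by more than the whole range within either arm. Isg20 averaged 8.64 ± 0.12 in the PT2385 arm and 6.60 ± 0.18 in the vehicle arm (SD, n = 3 each). It was higher in the PT2385 arm by 2.04 on the log2 scale, or 4.12-fold (SE 0.12, 95% interval 1.77 to 2.32, limma adjusted p = 0.000137). By size it ranked 11 among the 74 clusters called higher. The signal passed the threshold under all 14 alternative settings, where the difference lay between 1.96 and 2.14.

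The genes beside Isg20 on chromosome 7, chosen after its values were seen, did not pass the test. Aen, its neighbour on one side and a p53-induced nuclease gene, differed by -0.26 (95% interval -0.77 to 0.25), and Acan, the aggrecan gene on the other side, by 0.20 (95% interval -0.02 to 0.42). Their adjusted p in limma were 0.624 and 0.381, and the arms overlapped for Aen and not for Acan.

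Ifit3, a tetratricopeptide repeat gene whose product works with other Ifit proteins against foreign RNA, was the other member called higher in the PT2385 arm. Ifit3 had log2 signals of 8.46, 8.47 and 8.56 in the PT2385 arrays, against 7.94, 7.71 and 7.75 in the vehicle arrays. The 3 PT2385 values lay close together and above all vehicle values. Ifit3 averaged 8.50 ± 0.05 in the PT2385 arm and 7.80 ± 0.12 in the vehicle arm (SD, n = 3 each), a difference of 0.70 (SE 0.10, limma adjusted p = 0.0238). Its near-identical neighbour Ifit3b, which is no member, had 7.86, 7.85 and 8.01 in the PT2385 arrays, against 7.39, 7.23 and 7.11 in the vehicle arrays (difference 0.66, limma adjusted p = 0.0373). Probes of such copies can share targets, so the 2 clusters may not be separate measurements. The Ifit3 call was lost without PT2385 replicate 2 (adjusted p = 0.136) or 3 (adjusted p = 0.0575) and without vehicle replicate 2 (adjusted p = 0.106) or 3 (adjusted p = 0.0884), with the difference between 0.65 and 0.71 in these fits.

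The other genes of the Ifit cluster on chromosome 19 did not pass. Ifit1, which binds RNA that lacks the host's cap marks, had 6.65, 6.18 and 5.93 in the PT2385 arrays, against 5.74, 5.23 and 5.51 in the vehicle arrays. All PT2385 values lay above the vehicle values, with a wider spread than for Ifit3, and the difference was 0.76 (SE 0.20, limma adjusted p = 0.145). Ifit2, from the same family, had 6.51, 5.97 and 6.05 in the PT2385 arrays, against 5.95, 6.37 and 6.06 in the vehicle arrays, and its arms overlapped (difference 0.05, 95% interval -0.33 to 0.44). The relatives Ifit1bl1 and Ifit1bl2 differed by 0.38 and 0.04, with limma adjusted p of 0.400 and 0.930. The 60-base stretches of Ifit3 and Ifit1 shown above hold 2 ISRE-type matches each, and no ISRE-type match lay in the windows of Ifit2.

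The oligoadenylate synthetase genes, whose products turn on the RNA-cutting enzyme RNase L, gave small differences. Oas1a had 5.60, 5.34 and 5.76 in the PT2385 arrays, against 5.28, 5.07 and 4.89 in the vehicle arrays, with no overlap and a difference of 0.48 (SE 0.14, limma adjusted p = 0.193). Oas2 differed by 0.17 and Oasl2 by 0.17, and their arms overlapped. Oasl1, a paralogue that represses translation of Irf7 in mice, had 3.52, 3.33 and 3.25 in the PT2385 arrays, against 3.36, 3.52 and 3.53 in the vehicle arrays. These values lie under the negative control level of 4.47 in both arms, so a change of Oasl1 could be missed.

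The guanylate-binding protein genes, GTPases that attack the membranes around intracellular pathogens, varied most among replicates. Gbp3 had 8.21, 7.18 and 7.02 in the PT2385 arrays, against 7.42, 6.48 and 6.91 in the vehicle arrays, so that replicate 1 was the highest array of each arm. Its SD was 0.64 in the PT2385 arm and 0.47 in the vehicle arm, and the difference of 0.53 did not pass (95% interval -0.21 to 1.28, limma adjusted p = 0.494). Gbp2 had 6.72, 5.99 and 5.93 in the PT2385 arrays, against 6.37, 5.66 and 5.92 in the vehicle arrays (difference 0.23, 95% interval -0.32 to 0.78), and replicate 1 was again the highest of each arm.

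The remaining antiviral effectors did not pass and their arms overlapped. Isg15, the gene of a ubiquitin-like modifier, had 4.84, 4.67 and 4.59 in the PT2385 arrays, against 4.83, 4.33 and 4.68 in the vehicle arrays (difference 0.09, 95% interval -0.24 to 0.41). The values of Isg15 were close to the negative control level. Rsad2, the gene of the antiviral enzyme viperin, had 7.01, 6.33 and 6.28 in the PT2385 arrays, against 6.68, 6.73 and 6.28 in the vehicle arrays (difference -0.02, 95% interval -0.50 to 0.45). Cmpk2, the nucleotide kinase gene beside Rsad2, differed by 0.16 (95% interval -0.23 to 0.55). Bst2, or tetherin, which holds budding virus on the cell surface, had 8.06, 8.07 and 8.03 in the PT2385 arrays, against 8.30, 7.85 and 7.81 in the vehicle arrays (difference 0.07, 95% interval -0.25 to 0.38). The PT2385 values of Bst2 fell inside the vehicle range.

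Of the Mx GTPase genes, Mx2 differed by 0.18 (95% interval -0.17 to 0.53) and Mx1 by -0.02 (95% interval -0.41 to 0.38). Both arm means of Mx1, 3.84 in PT2385 and 3.85 in vehicle, lay under the negative control level. Zbp1, a sensor of Z-form nucleic acids that can start necroptosis, differed by -0.03, with 5.45, 5.37 and 5.30 in the PT2385 arrays inside the range of 5.75, 4.99 and 5.47 in the vehicle arrays. Rtp4 had the lowest difference among effectors, with 4.66, 4.88 and 4.55 in the PT2385 arrays, against 5.10, 5.01 and 4.46 in the vehicle arrays (difference -0.16, 95% interval -0.56 to 0.24). Ifi27l2a, Ifi35 and the apoptosis-linked gene Xaf1 differed by 0.21, 0.07 and 0.01. Over the 21 effectors the median difference was 0.16, with 16 positive and 5 negative, and it was 0.06 without PT2385 replicate 1 and 0.08 without vehicle replicate 2 or under array weights.

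**Figure D2:**
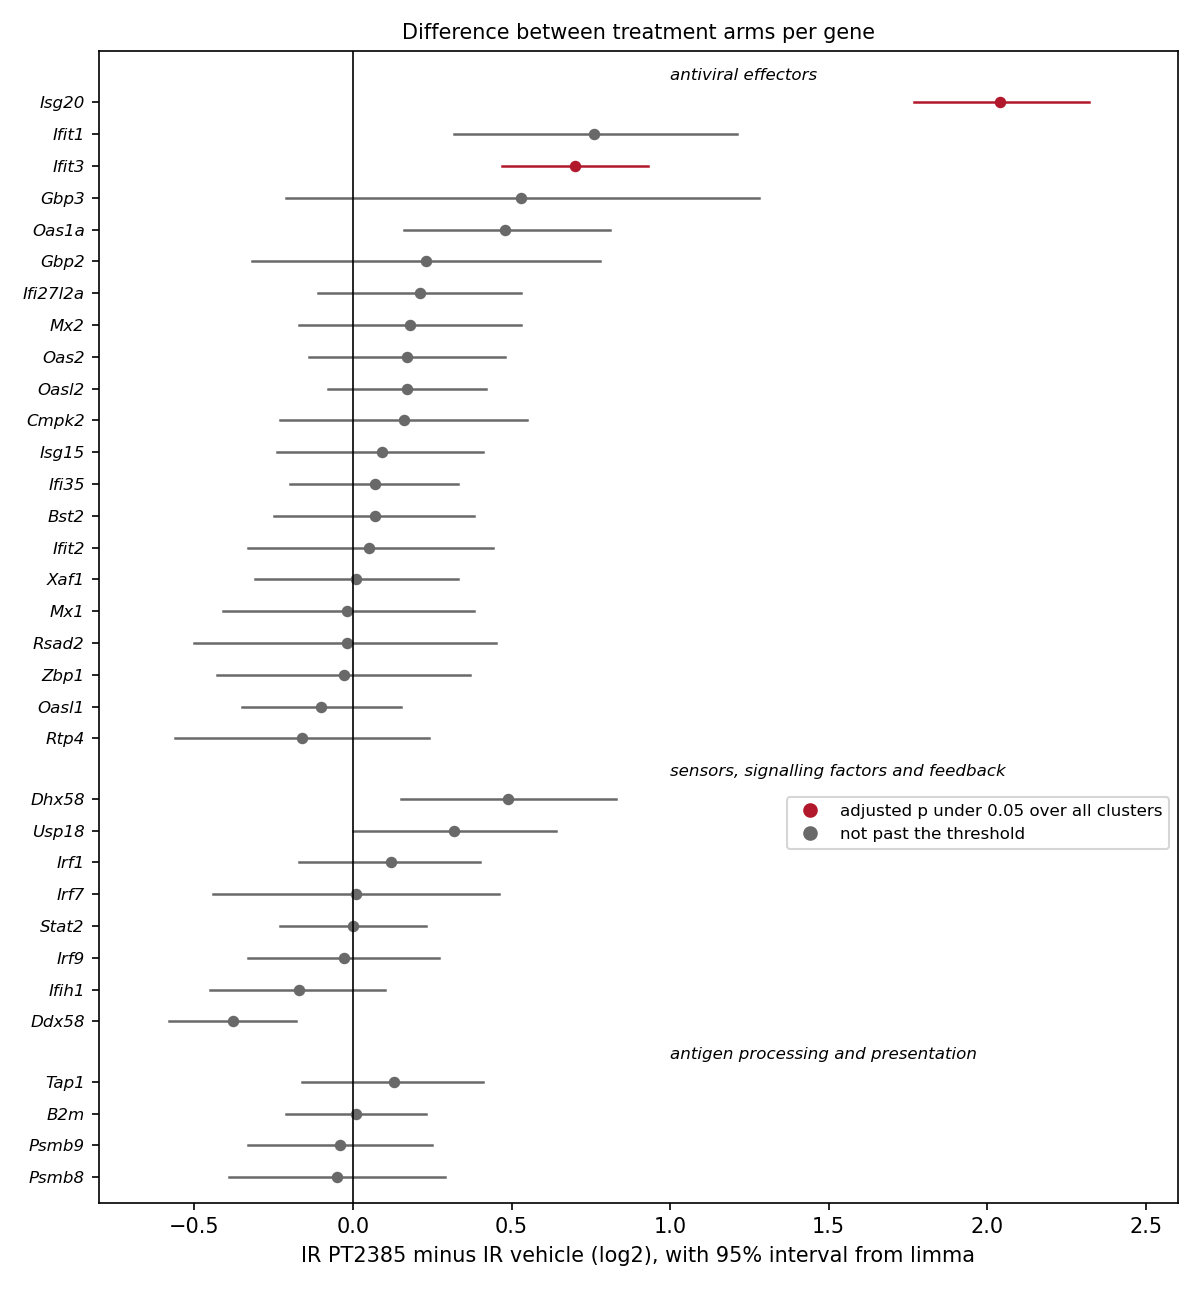
Difference between arms for each member (PT2385 minus vehicle, log2, x axis), with points for the estimate and lines for limma's 95% interval. Isg20 (2.04) and Ifit3 (0.70), in red, passed the threshold over all clusters, and most grey intervals span 0.

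No sensor or signalling factor passed the test, with a median difference of 0.01 over 8 genes and 0 past the threshold in limma's test. At an unadjusted p under 0.05 in that test there were 2, Ddx58 and Dhx58, beside 14.5% of all clusters. Ddx58, which encodes the cytosolic RNA sensor RIG-I, had 7.03, 7.05 and 7.11 in the PT2385 arrays, against 7.46, 7.46 and 7.40 in the vehicle arrays. It was the only one of the 33 members whose PT2385 values all lay below the vehicle values, beside 9.13% of clusters that separated in that direction, and its difference of -0.38 did not pass (SE 0.09, limma adjusted p = 0.114). Under the 14 alternatives the adjusted p of Ddx58 ran from 0.0531 to 0.373. Dhx58, a related helicase that tunes RIG-I signalling and lacks its signalling domains, had 5.17, 5.08 and 5.39 in the PT2385 arrays, against 4.82, 4.43 and 4.93 in the vehicle arrays. Its values separated in the other direction, with a difference of 0.49 (SE 0.15, limma adjusted p = 0.206). Ifih1, the sensor of long double-stranded RNA, had 8.02, 7.72 and 7.90 in the PT2385 arrays, against 7.90, 8.07 and 8.19 in the vehicle arrays, and its arms overlapped (difference -0.17, 95% interval -0.45 to 0.10).

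The 3 interferon regulatory factors and Stat2 showed no difference beyond the spread. Irf1, a factor that interferon-gamma induces, had 7.87, 7.86 and 8.00 in the PT2385 arrays, against 8.02, 7.60 and 7.77 in the vehicle arrays (difference 0.12, 95% interval -0.17 to 0.40). Irf7, which amplifies type I interferon production, had 6.46, 5.84 and 6.16 in the PT2385 arrays, against 6.43, 6.20 and 5.79 in the vehicle arrays (difference 0.01, 95% interval -0.44 to 0.46). The arms of both overlapped almost fully. Irf9 and Stat2, partners in the complex that binds the ISRE, had intervals from -0.33 to 0.27 and from -0.23 to 0.23. Usp18, which strips Isg15 from proteins and dampens the interferon receptor, had 5.99, 6.00 and 6.15 in the PT2385 arrays, against 5.92, 5.85 and 5.42 in the vehicle arrays. The values of Usp18 did not overlap, by a narrow margin, and the difference of 0.32 did not pass (SE 0.14, limma adjusted p = 0.350).

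**Figure D3:**
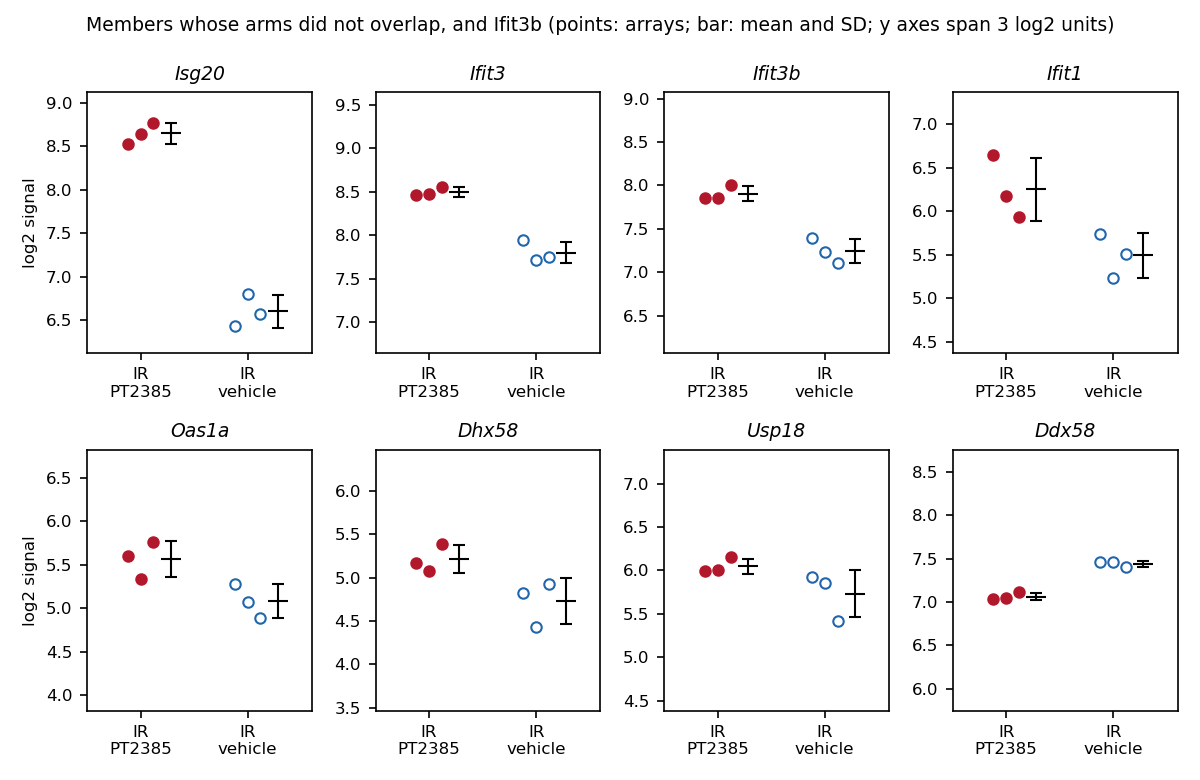
Log2 signal by array (y axis, each panel spanning 3 log2 units) for the 7 members whose arms did not overlap and for Ifit3b, with the IR PT2385 arrays left and the IR vehicle arrays right, and bars for mean and SD (n = 3 each). The gap between arms is wide for Isg20 (8.64 against 6.60 on average) and narrow for Usp18 (6.05 against 5.73), and Ddx58 alone lies lower in the PT2385 arm (7.06 against 7.44).

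No antigen processing gene differed beyond the replicate spread, with a median difference of -0.02 and 0 of 4 past the threshold in limma's test (0 at an unadjusted p under 0.05). B2m, the light chain of every MHC class I molecule, had 12.05, 11.96 and 11.91 in the PT2385 arrays, against 12.07, 11.91 and 11.90 in the vehicle arrays (difference 0.01, 95% interval -0.21 to 0.23). This signal is bright, though below the array maxima of 13.39 to 13.49, and bright array signals can be compressed. Tap1, which carries peptides into the endoplasmic reticulum, had 7.37, 7.23 and 7.38 in the PT2385 arrays, against 7.42, 7.19 and 7.0 in the vehicle arrays (difference 0.13, 95% interval -0.16 to 0.41). Psmb8, an immunoproteasome subunit gene, had 6.73, 6.57 and 6.57 in the PT2385 arrays, against 7.0, 6.59 and 6.43 in the vehicle arrays (difference -0.05, 95% interval -0.39 to 0.29). Psmb9, the other immunoproteasome subunit gene of the list, had 5.87, 6.05 and 5.74 in the PT2385 arrays, against 6.14, 5.85 and 5.81 in the vehicle arrays (difference -0.04, 95% interval -0.33 to 0.25). The arms overlapped for all 4.

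Upstream of these targets, no gene of the wider pathway passed the threshold in either direction. In limma's test the counts were 0 of 19 measured interferon ligands, 0 of 6 receptors, 0 of 14 Jak-Stat and regulatory factor genes and 0 of 14 further sensors and adaptors. At an unadjusted p under 0.05 in that test there were 2, 1, 1 and 2 in this order, beside 14.5% of all clusters. The ligand with the smallest p was Ifng, with 3.81, 3.88 and 3.78 in the PT2385 arrays, against 3.56, 3.61 and 3.54 in the vehicle arrays (limma adjusted p = 0.248), all under the negative control level. Ifna14, a type I interferon gene, was next with a difference of 0.32 (limma adjusted p = 0.339), and its arms overlapped. Its means, 4.38 in PT2385 and 4.06 in vehicle, also lay under the negative control level. Of the 19 ligands, 9 had both means at or below that level. For 0 of them did both means exceed the 95th percentile of the negative control rows, so a change of a ligand could be missed. Ifnar2, a chain of the type I receptor, differed by 0.22 and Ifngr1, a chain of the interferon-gamma receptor, by -0.25, with limma adjusted p of 0.331 and 0.350. Tbk1, the kinase that activates Irf3 below the sensors, had 8.32, 8.41 and 8.35 in the PT2385 arrays, against 8.72, 8.66 and 8.70 in the vehicle arrays (difference -0.33, limma adjusted p = 0.156). Mb21d1, the gene of the DNA sensor cGAS, differed by 0.26, Socs1, a feedback inhibitor, by 0.25 and the phosphatase gene Ptpn2 by -0.26, with limma adjusted p between 0.303 and 0.369.

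Downstream, 0 of 40 other interferon-stimulated genes passed, with a median difference of -0.02, 17 positive and 23 negative. At an unadjusted p under 0.05 in limma's test there were 9, beside 14.5% of all clusters. Of these, 4 were higher, beside 7.94% of clusters, and 5 lower, beside 6.54%. Ifitm1, a membrane protein gene that blocks viral entry, had 7.86, 7.63 and 7.33 in the PT2385 arrays, against 6.90, 6.78 and 7.05 in the vehicle arrays (difference 0.70, limma adjusted p = 0.0851). Parp10 differed by -0.55 (limma adjusted p = 0.203). Of 9 interferon-gamma-induced GTPases 0 passed, with Gvin1 at -0.96 (95% interval -1.49 to -0.43, limma adjusted p = 0.130) and Gbp8 at 0.15. Of 15 other MHC class I genes 0 passed, with Calr at -0.16 and Tapbpl at -0.17, and of 9 MHC class II genes 0 passed, with Ctss at -0.28 and H2-Aa at 0.33. Of 8 constitutive proteasome subunits, the counterparts of the immunoproteasome, 0 passed, with Psma3 at -0.23 and Psma5 at -0.20. At an unadjusted p under 0.05 in limma's test, Gvin1 was the single gene of these 4 lists.

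Within each arm, replicate 1 was high for these genes. PT2385 replicate 1 had the highest value of its arm for 19 of the 33 members, beside 36.8% of all clusters, and vehicle replicate 1 for 21 of them, beside 29.9%. Taken as deviations from each member's 6-array mean, the medians were 0.13, -0.01 and -0.05 in PT2385 replicates 1, 2 and 3, against 0.10, -0.08 and -0.16 in vehicle replicates 1, 2 and 3, and the arms overlapped. In vehicle replicate 1 the interferon-gamma-induced GTPases were also high, with a median deviation of 0.41, against -0.23 and -0.06 in the other vehicle arrays. Macrophage and monocyte markers were high in the same array, with a median deviation of 0.21, against -0.05 and 0.06. In PT2385 replicate 1 these GTPases were also the highest of the arm, at 0.15, against -0.10 and -0.12 in the other PT2385 arrays. The proximal tubule markers were high in PT2385 replicate 1 too, at 0.55, against -0.03 and -0.37, and the macrophage markers were at -0.01.

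**Figure D4:**
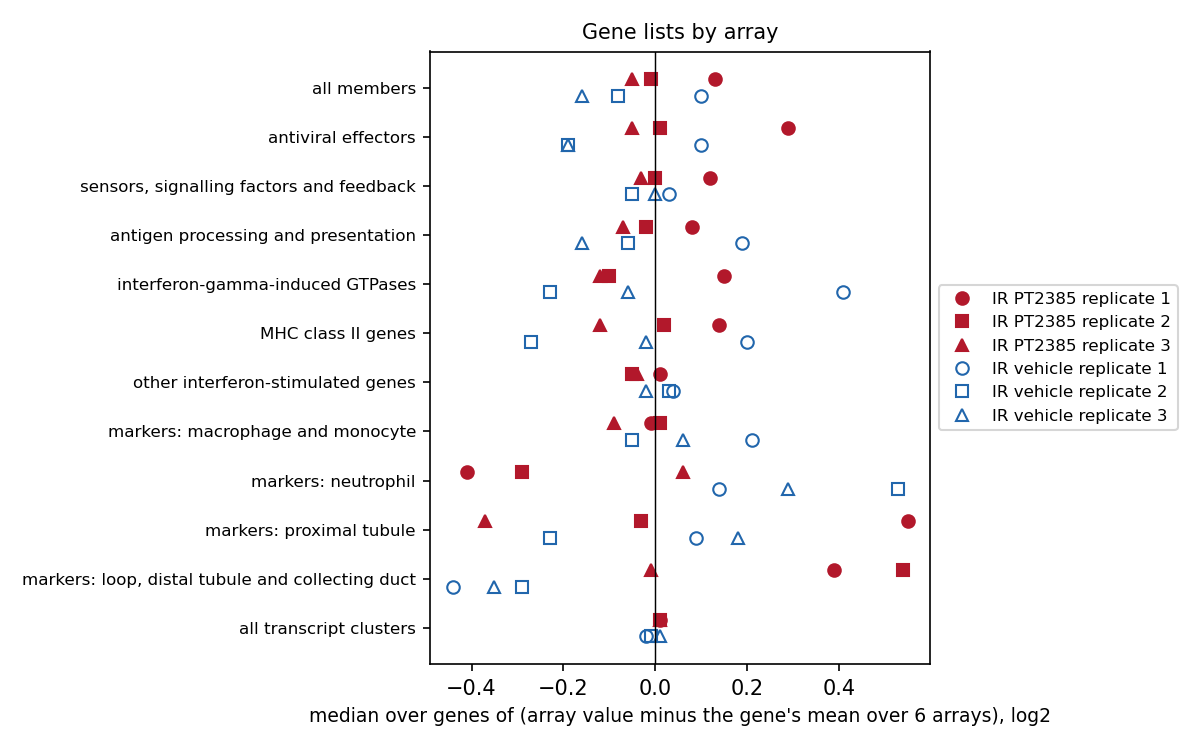
Median over the genes of a list of each array's deviation from the gene's mean over 6 arrays (x axis, log2), with filled red symbols for the IR PT2385 replicates and open blue symbols for the IR vehicle replicates, shapes giving the replicate number. The arms overlap for all members together (-0.05 to 0.13 in PT2385, -0.16 to 0.10 in vehicle) and separate for the neutrophil and the distal nephron markers.

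Some markers of other cells differed between the arms beside Isg20 and Ifit3. Of 7 neutrophil markers 1 passed and was lower in the PT2385 arm, the receptor gene Csf3r (difference -1.04, limma adjusted p = 0.0326). At an unadjusted p under 0.05 in limma's test, 4 of the 7 were lower, beside 6.54% of all clusters, and 0 were higher, beside 7.94%. The list's summed linear signal was 187 to 331 in the PT2385 arrays and 408 to 453 in the vehicle arrays, and 1 of its 7 markers had both means at or below the negative control level. Of 11 macrophage and monocyte markers 1 passed and was lower, the lysozyme gene Lyz2 (difference -1.19, limma adjusted p = 0.0202), and the summed signal, which includes Lyz2, was 1260 to 1340 in the PT2385 arrays and 1400 to 1910 in the vehicle arrays. The median difference of these 11 was -0.05, with 4 positive (among them the complement genes C1qa at 0.11, C1qb at 0.23 and C1qc at 0.15) and 7 negative (among them Ccr2 at -1.15 and Mrc1 at -0.57). At an unadjusted p under 0.05 in limma's test, 3 of the 11 were lower and 0 were higher, beside the same shares of all clusters. Their median deviations by array overlapped between arms. Of 6 markers of the loop, distal tubule and collecting duct 0 passed, and 5 were higher at an unadjusted p under 0.05 in limma's test, beside 7.94% of all clusters. The difference was positive for 6 and its median was 0.82. Their summed signal was 14400 to 19000 in the PT2385 arrays and 10400 to 11600 in the vehicle arrays. The summed signal of 3 other lists overlapped between arms: 244 to 258 in PT2385 arrays and 222 to 266 in vehicle arrays for T and NK cells, 2280 to 2840 in PT2385 arrays and 2000 to 2780 in vehicle arrays for endothelium, and 8960 to 19800 in PT2385 arrays and 11000 to 14700 in vehicle arrays for the proximal tubule. In such mixed isolates fewer cells of a type and less RNA per cell cannot be told apart, and the part of these shifts in the values of Isg20 and Ifit3 was not tested.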

How the data were processed

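Gene expression was measured on Affymetrix whole-transcript arrays, 1 per sample. The deposited values are log2 signals per transcript cluster; per the submitters' processing notes, Transcriptome Analysis Console was used, while its version, summarisation, background correction and normalization are not stated there. Array medians of the tested clusters lay between 6.196 and 6.248. After removal of 6640 control rows, 22206 clusters were tested with no filter. In the platform annotation 19572 clusters have 1 symbol, 0 have several and 2634 have none, and an update through Entrez IDs against RefSeq (GRCm38.p6) changed 0.

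Differences are PT2385 minus vehicle from limma 3.58.1 (R 4.3.3; lmFit, eBayes, treatment only), 2-sided, adjusted by Benjamini-Hochberg over all clusters at 0.05. On simulated arrays with the observed spreads over 22206 clusters, the fit recovered 14% of 50 clusters shifted by 0.5, 88% of 50 shifted by 1 and 100% of 50 shifted by 2, with 3 false calls, so small differences are often missed. The number of arrays limits the precision. The highest share of equal values between arrays was 0.234%.

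The members and lists were chosen with earlier results of these data known. All measured members are named; of each other pathway list, up to 4 genes past the threshold are named, and otherwise the 2 of lowest p. Y-linked Eif2s3y, Uty and Kdm5d checked the arms. Members' values were given no adjustment over the list alone. Same-numbered arrays of the arms had correlated deviations of 0.138, 0.025 and -0.059, so the numbers were not taken as pairs. Alternatives were the replicate block, scalings, filters, variance priors, array weights and omission of single arrays or sex chromosomes.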

Additional observations from a re-analysis of the deposited data

How the results depend on the processing

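Isg20 kept its direction and call under all 14 alternatives (adjusted p from 3.86e-05 to 0.00284). Ifit3 kept its direction in all 14 and its call in 10, with an adjusted p from 0.0102 to 0.136, and no other member was called under any alternative. Members called numbered 1 to 2 when single arrays were left out and 2 otherwise. Of the 33 members, 18 kept their sign under every alternative and 15, none of them called, turned it under at least 1. Calls over all clusters numbered 184, with 456 under array weights and 42 to 179 when single arrays were left out (42 when PT2385 replicate 2 was omitted, and 81, 65 and 72 when vehicle replicate 1, 2 or 3 was); the cause was not tested. Centring each array on its median turned the split of 74 higher and 110 lower into 57 and 135. The median of the sensors and signalling factors, 0.01 over the 6 arrays, ran from -0.08 to 0.09 when single arrays were left out. With the replicate block there were 178 calls over all clusters and 2 among members, and Ifit3 had an adjusted p of 0.0442; the block changed no call of a member. Clusters of a gene other than the brightest were not run, since each member had 1. Signals near the negative control level, as for Mx1, Oas2, Oasl1 and Isg15, limit what can be seen, and the first 3 were left out by the filter on dim clusters. That level is a median, and the 95th percentile of the negative control rows was 7.25 in the highest array. Both arm means lay above 7.25 for 6 of the 33 members, so the limit reaches further than these genes. Ifit3 was above it in both arms, while the vehicle mean of Isg20 (6.60) was not.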
